A study of Mus musculus with 3 samples.

Results

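Narrow Notch2 sites found in both replicates of a ChIP-seq experiment on embryonic mouse kidney are described here, that is, peaks of the smallest width in the lists, 500 bp, that were called at the same place in both replicate immunoprecipitations. A site was taken as a replicate 1 peak of exactly 500 bp that overlapped a replicate 2 peak of exactly 500 bp by at least 1 bp. There were 970 such sites among the 9116 peaks of 500 bp in replicate 1, a share of 10.6%, and among 28651 replicate 1 peaks in all. They were compared with the 7637 replicate 1 peaks of 500 bp that overlapped no replicate 2 peak. A further 509 replicate 1 peaks of 500 bp overlapped only wider replicate 2 peaks. The sites were chosen by measured width and overlap in these same lists, so their number and the fact of their overlap are a description and not a result.

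Notch2 is a transmembrane receptor that is cleaved when a neighbouring cell presents a ligand of the Jagged or Delta-like families. The freed intracellular part enters the nucleus, where it has no DNA-binding domain of its own and reaches chromatin through the DNA-binding protein RBPJ and co-activators of the Mastermind-like family. In the forming kidney, Notch2 is known for its part in the segmentation of the early nephron, above all in the formation of proximal tubule and podocyte precursors.

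The samples were whole kidneys of mouse embryos at stage E16.5, crosslinked and used for chromatin immunoprecipitation and sequencing (ChIP-seq). An anti-Notch2 antibody from Cell Signaling Technology was used for 2 replicates, and 1 input DNA sample of the same tissue and stage was not analysed here. The labels name no genotype, strain or treatment for any sample, and whole kidney mixes nephron, ureteric, stromal and vascular cells. Nothing in the labels tells separate animals or pools from repeat libraries, so a difference between the replicates may be technical. The deposited lists hold mouse genome positions (build mm9) without height, score or read count, so the depth behind a peak is unknown and the tissue label could not be checked against markers. No gene annotation or sequence of mm9 was used, and the sites are therefore given by position, counted from 1, without genes or bases. With 2 samples of 1 group there was no test over samples, and intervals are 95% Wilson intervals for shares and Newcombe intervals for differences, which cover counting error only and treat peaks as independent.

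The narrow peaks of the 2 replicates mostly did not find each other. Replicate 2 had 6028 peaks of 500 bp, of which the 970 counterparts made up 16.1%, and each site had exactly 1 counterpart. Most of the narrow replicate 2 peaks that were found again lay under a wider replicate 1 peak, 2847 of them (47.2%, interval 46.0 to 48.5%), and 2211 (36.7%, 35.5 to 37.9%) had no overlap. In replicate 1 the balance was different, with 83.8% of the 500 bp peaks unmatched (83.0 to 84.5%) and 5.58% matched by wider peaks only (5.13 to 6.07%). The overlap with any peak was 16.2% for the 500 bp peaks of replicate 1, 33.0% for all its peaks and 63.3% for the 500 bp peaks of replicate 2. The lists differ in length, 28651 against 12585 peaks, which bears on each of these shares.

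A 500 bp counterpart was most common among matched peaks that were themselves narrow. Of the 1479 matched 500 bp peaks of replicate 1, 65.6% had one (63.1 to 68.0%). The share was 52.1% for matched peaks of 625 to 636 bp (49.8 to 54.4%), 42.5% for those of 637 to 847 bp and 23.1% for those of 848 bp and wider (21.8 to 24.4%). Counted over all peaks and not only the matched ones, 13.3% of replicate 1 peaks overlapped a 500 bp replicate 2 peak, and here the order was not the same. The widths of 625 to 636 bp, which lie just outside the width limit because no peak of either list measured between 500 and 625 bp, stood highest at 18.4% (17.3 to 19.5%). The 500 bp peaks stood lowest at 10.6% (10.02 to 11.3%). Where a 500 bp peak met a wider one, the wider one had a median width of 646 bp in replicate 2 and of 757 bp in replicate 1. The median of all wider peaks was 698 bp in replicate 2 and 769 bp in replicate 1. Width and overlap are also what the sites were chosen by, so the shares by width are a description. By list order, 500 bp peaks made up 0.244% of the first 10% of replicate 1 and 86.6% of the last 10%. In replicate 2 they made up 1.19% and 94.8%. Place in the list was not held equal in the shares by width, and its part in them was not tested.

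The paired narrow peaks lay almost on top of each other. Their centres were a median of 47.5 bp apart, with an interquartile range of 22 to 90 bp, and their median overlap was 452.5 bp. Centres within 25 bp were found for 284 sites, within 50 bp for 508 (52.4%, 49.2 to 55.5%) and within 100 bp for 766 (79.0%, 76.3 to 81.4%). Only 32 of the 970 sites had centres more than 250 bp apart, the distance that would be the median if shifts were spread evenly over all those that allow an overlap. The overlap criterion bounds the distance, which limits what these values can show by themselves. The shift had no preferred side, with the replicate 2 centre at the higher coordinate in 476 sites and at the lower in 488, and a mean shift of 1.75 bp (SD 97.6, n = 970 pairs).

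**Figure D1:**
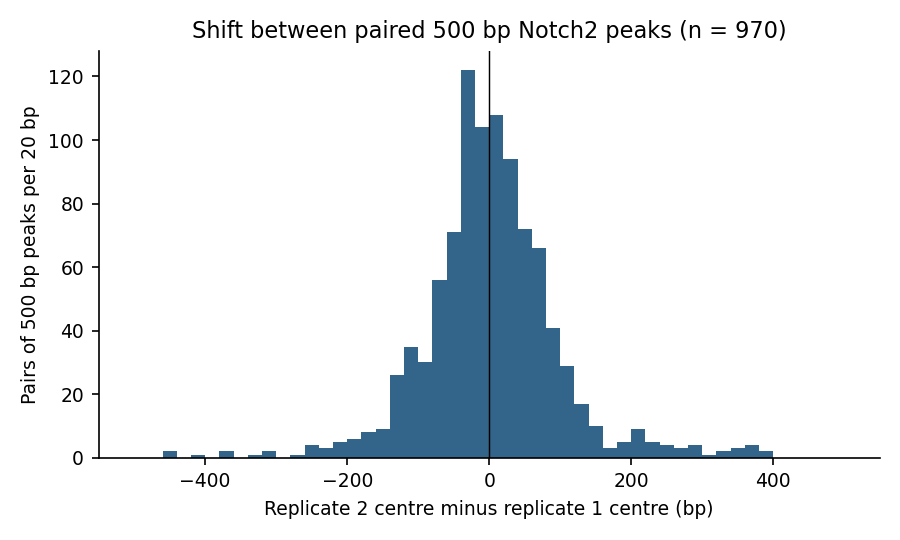
Distance in bp from the replicate 1 centre to the replicate 2 centre for the 970 pairs of 500 bp peaks, as a histogram in steps of 20 bp. The pairs gather around 0, with 766 of 970 within 100 bp on either side.

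Both replicates placed 6 sites at identical coordinates, of which 5 are named here by the lowest sum of their places in the lists, with 1 of these on chromosome 18. The site on chromosome 3 from 148530552 to 148531051 was at place 7836 of replicate 1 and 11705 of replicate 2, with no other peak within 12.5 kb in either list. On chromosome 7, from 57617372 to 57617871, the places were 19747 and 6110. The site on chromosome 10 from 59038871 to 59039370 had places 23050 and 6390, and that on chromosome 15 from 26698356 to 26698855 had 23390 and 7696. The site on chromosome 18 had places 9019 and 5337. As percent of each list, the places ranged from 27.4% and 93.0% for the site on chromosome 3 to 31.5% and 42.4% for that on chromosome 18, so that identical positions occurred both at like and at unlike places. None of these 5 was in the first 25% of replicate 1.

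Wider peaks matched each other less closely in position. Pairs of 2 wider peaks had a median distance of 88.0 bp between centres, with 54.9% within 100 bp (53.6 to 56.3%, 5205 pairs). Pairs of a narrow replicate 1 peak and a wider replicate 2 peak had a median of 86.5 bp, and pairs of a wider replicate 1 peak and a narrow replicate 2 peak one of 85.0 bp. A pair of narrow peaks can overlap only with centres under 500 bp apart, and wider ones over a longer range, so that the criterion itself sets part of this difference.

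Few narrow peaks fell just short of a match. At the inner edge of the overlap limit was a site on chromosome 15 from 63875354 to 63875853, whose replicate 2 peak shared 40 bp with it. The next ones were on chromosome 12 from 97405855 to 97406354, with 49 bp shared, and on chromosome 2 from 20380218 to 20380717, with 87 bp. Just outside lay a replicate 1 peak on chromosome 15 from 10603111 to 10603610, at 7 bp from the nearest 500 bp replicate 2 peak, and one on chromosome 1 from 23497012 to 23497511, at 26 bp. Of the 7637 unmatched peaks, 23 had a 500 bp replicate 2 peak within 500 bp of their edge (0.301%, 0.201 to 0.452%), and 57 had one within 1000 bp. A replicate 2 peak of any width lay within 1000 bp of 126 of them (1.65%, 1.39 to 1.96%) and within 12.5 kb of 1465 (19.2%, 18.3 to 20.1%). Peaks within a list were never closer than 0.5 kb. This spacing sets no limit between peaks of different lists, and its part in the counts above was not tested.

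The files list the peaks in an order that the sources used here do not describe, and this order was not part of the choice of sites. The reproduced narrow sites stood earlier in the replicate 1 list than the unmatched ones. Their median place was 65.0% of the way down the list (interquartile range 48.3 to 80.7%), against 80.9% (64.6 to 91.8%) for unmatched 500 bp peaks and 64.6% for those matched by wider peaks. The first 50% of the list held 27.5% of the sites and 11% of the unmatched peaks, a difference of 16.5 percentage points (interval 13.7 to 19.5). The last 25% held 35.7% of the sites and 61.0% of the unmatched peaks.

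In replicate 2 the difference in place was smaller. There the counterparts had a median place of 71.4%, the unmatched 500 bp peaks one of 78.7% and those under wider replicate 1 peaks one of 67.1%. The first 50% of the replicate 2 list held 20.8% of the counterparts and 13.2% of the unmatched peaks, 7.62 points apart (4.77 to 10.6). Whether the difference in place differs between the replicates was not tested.

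Read along the list, the share of narrow peaks with a narrow counterpart fell in replicate 1 and had no such slope in replicate 2. In replicate 1 it was 25.5% in the third 10% of the list (19.96 to 32.0%, 51 of 200 peaks), 14.7% in the sixth (12.5 to 17.1%) and 5.12% in the last (4.32 to 6.05%, 127 of 2483). In replicate 2 it was 15.8% in the third 10% of the list (11.5 to 21.3%), 16.4% in the sixth (13.9 to 19.3%) and 15.8% in the last (13.8 to 17.9%, 188 of 1193), while the second 10% was lower at 4.40% (4 of 91, 1.72 to 10.8%). Overlap of the same replicate 2 peaks with any replicate 1 peak did go down, from 81.8% (76.0 to 86.5%) in the third 10% to 51.8% (49.0 to 54.6%) in the last. The first 10% of the lists held 7 and 15 peaks of 500 bp, too few to place.

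**Figure D2:**
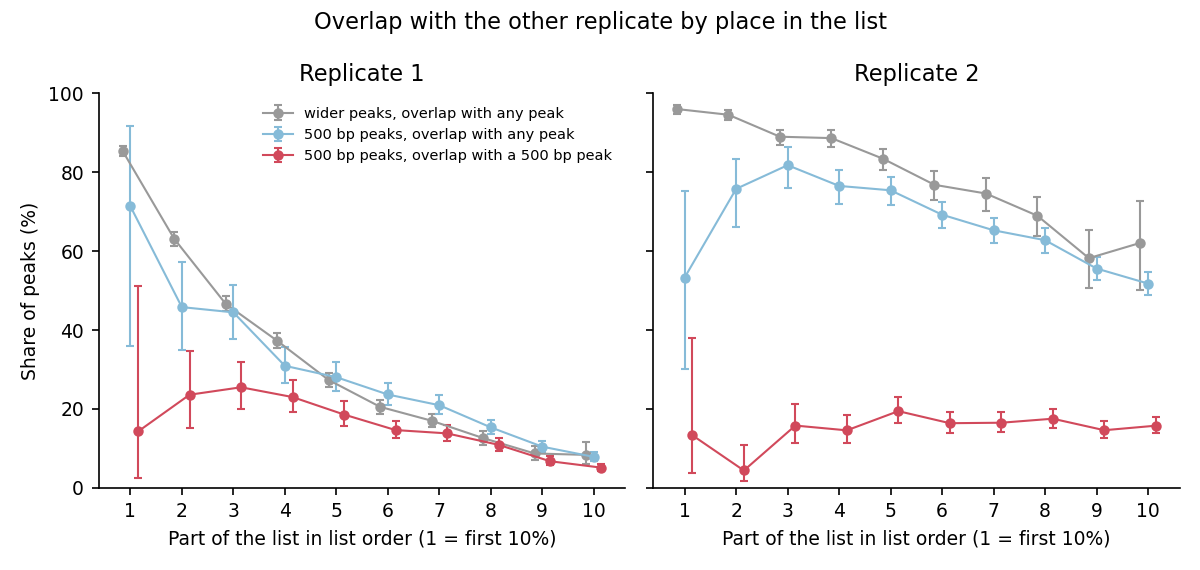
Share of peaks (%) that overlap the other replicate, by successive 10% of the list, for replicate 1 and replicate 2, with 95% Wilson intervals as bars. For 500 bp peaks matched by a 500 bp peak the share in replicate 1 goes from 25.5% in the third 10% to 5.12% in the last, and in replicate 2 it is 15.8% in both.

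At the same place in the list, narrow and wider peaks of replicate 1 differed little in how often they were matched in the later part of the list, and narrow ones were behind in the earlier part. In the last 25% of that list 9.96% of the 500 bp peaks overlapped any replicate 2 peak (9.17 to 10.8%), and so did 9.78% of the wider ones (8.56 to 11.2%). In the preceding 25% the shares were 20.5% for 500 bp peaks (19.04 to 22.09%) and 17.8% for wider ones (16.72 to 18.97%). These intervals did not overlap. From the sixth 10% of the list to the ninth the narrow peaks were ahead each time, with overlapping intervals. In the sixth the shares were 23.7% and 20.5%, and in the ninth 10.4% and 8.72%. In the very last 10% the shares were 7.85% for 500 bp peaks (6.86 to 8.98%) and 8.36% for wider ones (5.98 to 11.6%). In the second 25% the narrow peaks were behind, at 31.0% (28.3 to 33.8%) against 34.9% (33.7 to 36.1%), with overlapping intervals. In the first 25% they were further behind, at 45.3% (37.9 to 53.1%, 73 of 161) against 69.7% (68.6 to 70.8%). Place within each 25% was not held equal, since the first 10% of the list held 7 narrow and 2858 wider peaks. In the second 10% the narrow and wider shares were 45.8% and 63.2%, and in the third 44.5% and 46.7%. In the fourth 10% they were 30.95% and 37.3%, and in the fifth 28.1% and 27.4%. In replicate 2 the narrow peaks were behind throughout, with 55.6% against 64.0% in the last 25% of the list and 77.5% against 94.3% in the first.

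The places of the 2 peaks of a site were loosely related. Spearman's rho between them was 0.27 over 970 pairs, against 0.63 over the 5205 pairs of wider peaks, as a description over pairs that share their libraries. Narrow peaks were concentrated late in both lists, so their places spanned a smaller range. In the first 50% of both lists lay 105 sites (10.8%), and 606 (62.5%) lay in the last 50% of both. The remaining 259 (26.7%) were early in 1 list and late in the other.

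**Figure D3:**
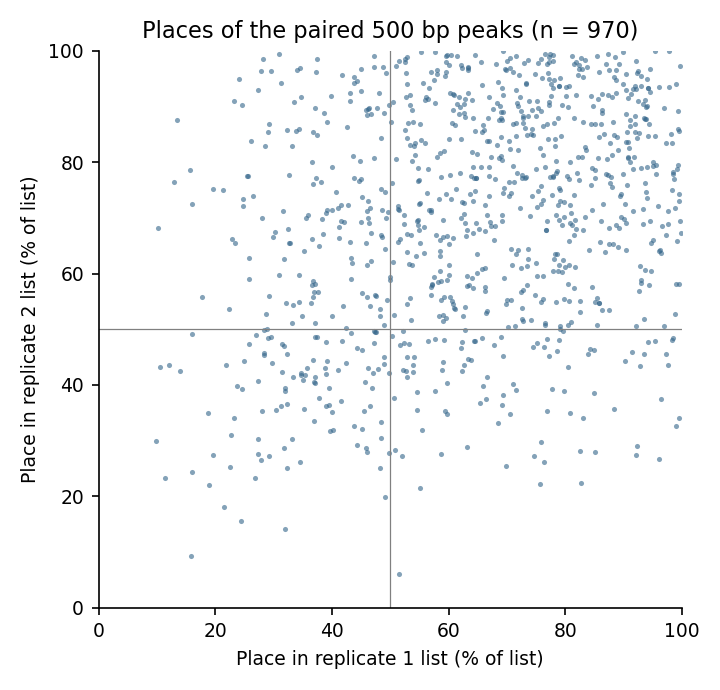
Place of each of the 970 sites in the replicate 1 list (horizontal, % of list) and in the replicate 2 list (vertical, % of list), where low values are early, and grey lines mark 50%. Most points, 606, lie in the upper right, late in both lists, and 105 lie in the lower left.

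Sites that were early in both lists had closer centres than those late in both. Among the 105 early sites the median distance was 39.0 bp, and 88.6% were within 100 bp (81.1 to 93.3%). Among the 606 late sites these values were 54.5 bp and 77.4% (73.9 to 80.5%), a difference of 11.2 percentage points (3.05 to 17.1). The 259 sites early in 1 list only had a median of 39.0 bp, as low as the early ones, with 78.8% within 100 bp (73.4 to 83.3%). The 187 sites in the last 25% of both lists had a median of 64.0 bp.

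Early and late sites were named by the sum of their places, in which the longer replicate 1 list weighs more. With places taken as percent of each list, 9 of the 12 earliest and 5 of the 6 latest would be named again. The 12 sites with the lowest sum of places lay on 9 chromosomes, and 8 of them had no other peak of either list within 12.5 kb. First was a site on chromosome 1 from 4420095 to 4420594, at place 4556 of replicate 1 and 1179 of replicate 2, with centres 22 bp apart. It had 2 other peaks of each list within 12.5 kb. Next came chromosome 2 from 152564925 to 152565424, at places 3239 and 2930, with 60 bp between centres and 1 other peak of each list nearby.

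The sites that followed mostly stood alone. The site on chromosome 15 from 16612757 to 16613256 held places 2832 and 3776, and 2832 was the earliest place of any site in replicate 1. Its nearest other peak of either list was 78.6 kb away. On chromosome 17 a site from 63937928 to 63938427 had places 4587 and 3064 and centres 71 bp apart. A second site of that chromosome, from 75793645 to 75794144, had places 6996 and 1959 and centres 11 bp apart. Both stood alone, at 48.4 and 70.1 kb from any other peak.

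Chromosome 3 held 2 of these early sites. The one from 140996468 to 140996967 had places 5409 and 2764, centres 5 bp apart and no other peak within 114.3 kb. The other, from 151406310 to 151406809, had places 3454 and 5477 and centres 29 bp apart. Equally alone within 12.5 kb were sites on chromosome 4 from 152397729 to 152398228 (places 2996 and 5439) and on chromosome 16 from 6053081 to 6053580 (places 5634 and 3446). The latter had centres 2 bp apart, the closest of the 12.

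The rest of the group differed in how closely they matched in position. A site on chromosome 10 from 13151776 to 13152275 had places 3976 and 5349 and centres 16 bp apart. A site on chromosome 15 from 36508131 to 36508630, at places 6451 and 3177, had centres 187 bp apart, the farthest of the 12. The remaining site was on chromosome 18, at places 6157 and 2273, with 3 other peaks of each list within 12.5 kb.

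The 6 sites with the highest sum of places had centres 12 to 231 bp apart, with a median of 73.5 bp against 25.5 bp in the 12 early ones. The highest sum was that of a site on chromosome 14 from 62589392 to 62589891, at place 28576 of 28651 in replicate 1 and 12249 of 12585 in replicate 2, with centres 46 bp apart. Chromosome 4 held a site from 8806228 to 8806727 at places 28014 and 12574, the latest of all by percent of list, and one from 70578256 to 70578755 at places 28478 and 11221. On chromosome 3 there were sites from 115241585 to 115242084, with places 27341 and 12575 and centres 12 bp apart, and from 143406262 to 143406761, with places 28360 and 11826. The sixth was on chromosome 8 from 118209349 to 118209848, at places 28010 and 11762. Centres within 50 bp of each other were thus still found near the end of both lists, and 4 of the 6 had no other peak of either list within 12.5 kb.

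At a distance of 12.5 kb, most reproduced narrow sites stood apart from other Notch2 peaks, and so did the unmatched ones. In replicate 1, 577 of 970 sites (59.5%, 56.4 to 62.5%) had no other peak of that list within 12.5 kb, against 58.0% of the unmatched 500 bp peaks (56.9 to 59.1%). The difference of 1.49 percentage points had an interval from -1.82 to 4.73. The 500 bp peaks matched only by wider ones were less often alone, at 49.9%, 9.58 points below the sites (4.25 to 14.9). Among the wider peaks of replicate 1 the share was 50%. In replicate 2, 71.8% of the counterparts were alone (68.8 to 74.5%), against 68.2% of the unmatched 500 bp peaks, a difference of 3.55 points (0.0645 to 6.93). In both lists at once 542 sites (55.9%, 52.7 to 59.0%) were alone, and 239 had a neighbour in both. The majority depends on the distance, since 41.2% of the sites were alone within 25000 bp in replicate 1 (38.2 to 44.4%) and 57.7% in replicate 2.

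**Figure D4:**
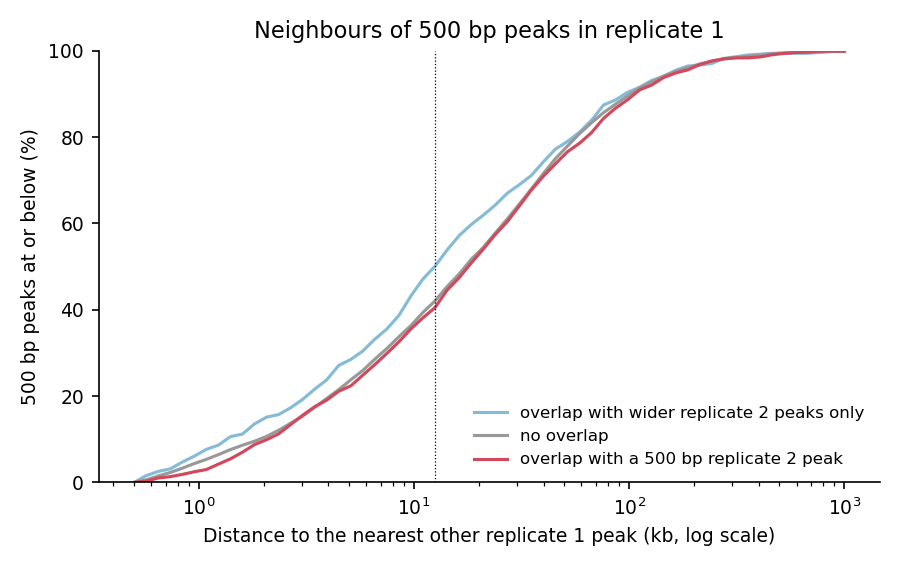
Cumulative share (%) of 500 bp replicate 1 peaks by distance to the nearest other replicate 1 peak (kb, log scale), for 970 reproduced sites, 7637 peaks without overlap and 509 matched by wider peaks only, with 12.5 kb dotted. The curves of reproduced and unmatched peaks nearly coincide beyond a few kb, with medians of 18.0 and 17.4 kb, and that of peaks matched by wider ones lies to the left, with a median of 12.4 kb.

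Very near neighbours were less frequent at the reproduced sites. Another replicate 1 peak lay within 1000 bp of 27 sites (2.78%, 1.92 to 4.02%) and of 360 unmatched peaks (4.71%, 4.26 to 5.21%), a difference of -1.93 percentage points (-2.93 to -0.614). In replicate 2 the corresponding shares were 1.86% and 2.89%, and the interval of the difference, -2.08 to 0.188, included 0.

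In replicate 1, the reproduced sites had a reproduced neighbour more often than unmatched narrow peaks did, and less often than narrow peaks matched by wider ones. Another replicate 1 peak that overlapped a replicate 2 peak of any width lay within 12.5 kb of 222 sites (22.9%, 20.4 to 25.6%), against 1182 unmatched peaks (15.5%, 14.7 to 16.3%), 7.41 points apart (4.74 to 10.3). Counted only where there was a neighbour at all, 56.5% of the sites and 36.8% of the unmatched peaks had a matched one, 19.6 points apart (14.4 to 24.7). Narrow peaks matched by wider ones stood above the sites in both measures, at 33.4% (sites minus these, -10.5 points, -15.4 to -5.69) and 66.7%, and wider peaks as a whole had 23.9%, so a reproduced neighbour was not particular to the sites. The difference was similar in the first 50% of the list (7.29 points, 1.89 to 13.2) and in the last 50% (7.24 points, 4.18 to 10.6). In replicate 2 the counterparts were not ahead of the unmatched peaks, and they were again behind the narrow peaks matched by wider ones. There 22.4% of the counterparts and 25.4% of the unmatched peaks had a matched neighbour within 12.5 kb (difference -3.00 points, -6.12 to 0.250). Narrow replicate 2 peaks matched by wider ones had 26.3% (counterparts minus these, -3.94 points, -6.94 to -0.782), and all wider replicate 2 peaks had 35.1%. In the last 50% of that list the unmatched peaks were ahead, at 24.96% against 20.6% (difference -4.39 points, -7.75 to -0.843). Of those with any neighbour, 79.2% of the counterparts and 79.8% of the unmatched peaks had a matched one (difference -0.604 points, -6.51 to 4.78). For narrow peaks matched by wider ones it was 82.6% (counterparts minus these, -3.38 points, -9.075 to 1.72). Most replicate 2 peaks are matched, so the 2 lists start from different levels.

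The most isolated site was on chromosome 8 from 44371180 to 44371679, 741.3 kb from any other peak of either list, with centres 83 bp apart and places 10935 and 9613. Chromosome 10 held isolated sites from 65247960 to 65248459, at 689.5 kb, and from 51440572 to 51441071, at 553.6 kb. The X chromosome held one from 149936799 to 149937298, at 641.9 kb, with centres 7 bp apart. A second site of chromosome 8, from 5495728 to 5496227, was 547.6 kb from the nearest peak. These 5 sites thus had single narrow peaks, called in both replicates, in the middle of more than 1000 kb otherwise without a peak.

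Few reproduced narrow sites had another such site within 12.5 kb. The nearest other site was a median of 597.8 kb away, with an interquartile range of 200.3 to 1535.6 kb. The sites were few, 0.397 per Mb on the autosomes, and the distance for evenly spread sites was not calculated. These distances therefore do not show whether the sites avoid each other or lie close. With sites joined at 12.5 kb, 952 remained single and 18 formed 9 pairs, and no larger group was found. The closest pair was on chromosome 10, where the sites from 59038871 to 59039370 and from 59040586 to 59041085 were 1.22 kb apart and had centre shifts of 0 and 12 bp between the replicates.

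The other pairs had a wider spacing. On chromosome 9 a pair ran from 53232797 to 53236303 and another from 75842587 to 75847134. Chromosome 8 held pairs from 63752059 to 63758260 and from 116438456 to 116447717, chromosome 14 pairs from 23408702 to 23417440 and from 73841665 to 73846013, chromosome 2 one from 171197111 to 171208516, and chromosome 16 one from 60283539 to 60291184. In the pairs of chromosome 16, of chromosome 14 near 73841665 and of chromosome 9 near 53232797, the other site was the only further peak of either list within 12.5 kb.

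All 20 chromosomes with peaks held reproduced narrow sites, from 27 to 90 on each of the 19 autosomes. The share of 500 bp replicate 1 peaks that were reproduced went, over the autosomes, from 7.69% on chromosome 7 (36 of 468, 5.61 to 10.5%) to 13.9% on chromosome 14 (55 of 397, 10.8 to 17.6%). Close to the upper end were chromosome 10 with 13.8% (11.1 to 17.1%), chromosome 1 with 13.8% (11.4 to 16.7%) and chromosome 3 with 13.6% (10.9 to 16.8%). Close to the lower end were chromosome 11 with 7.97% (5.99 to 10.5%), chromosome 17 with 8.04% and chromosome 4 with 8.11%. The intervals of most neighbours in this order overlapped, while those of chromosomes 1, 3, 10 and 14 did not overlap that of chromosome 7. Nor did they overlap those of chromosomes 2 (8.43%, 6.60 to 10.7%), 4 (6.12 to 10.7%) and 11. These chromosomes were picked from the ends of the order after the shares were seen, which the intervals do not allow for. For chromosome 14 the separation from chromosome 7 was lost when 50% overlap was required (9.91 to 16.5% against 5.25 to 9.98%). It was also lost with centres within 100 bp (7.49 to 13.4% against 4.17 to 8.51%). For chromosomes 1, 3 and 10 it remained.

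As a share of the 500 bp peaks of replicate 2 the order changed in part. Chromosome 7 was at 13.4% (9.86 to 18.0%), and its interval overlapped those of chromosomes 1, 3, 10 and 14. Chromosome 14 was again high with 20.2% (15.9 to 25.4%) and chromosome 17 low with 12.2% (8.50 to 17.1%). Chromosome 11 was at 17.0% (12.9 to 22.0%), above the 16.1% of all chromosomes, whereas in replicate 1 it was below the overall share. That chromosome had 552 peaks of 500 bp in replicate 1 and 259 in replicate 2.

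**Figure D5:**
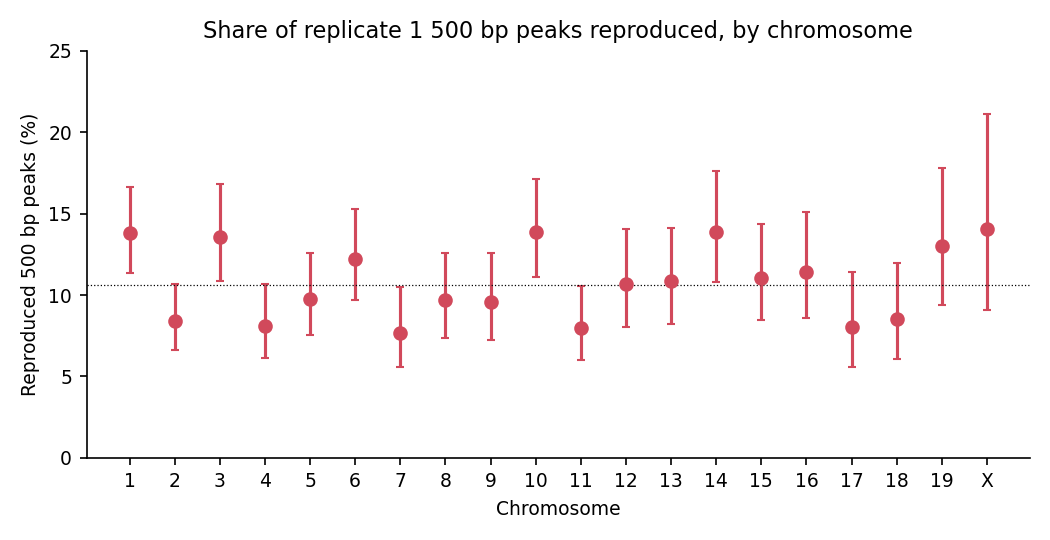
Share (%) of the 500 bp replicate 1 peaks of each chromosome that overlap a 500 bp replicate 2 peak, with 95% Wilson intervals as bars and the overall 10.6% dotted. Values lie between 7.69% on chromosome 7 and 14.1% on the X chromosome, whose interval is the widest.

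The X chromosome held 18 reproduced narrow sites, or 0.112 per Mb, whereas the autosomes held 0.397 per Mb. These densities were taken over the span used for each chromosome, which was 160.4 Mb for the X chromosome. The ratio of the densities was 0.283 (exact interval 0.167 to 0.449, 95%). For the unmatched 500 bp peaks of replicate 1 the ratio was 0.198 (0.161 to 0.242), so that reproduced and unmatched narrow peaks were both sparse there and their intervals overlapped. The share of X chromosome 500 bp peaks that were reproduced, 14.1% (9.08 to 21.1%), could not be separated from that of all chromosomes at this number of peaks.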

How the data were processed

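Both peak lists were used as the authors deposited them, 1 list per immunoprecipitation and not pooled. Per the submitters' processing notes, the tools were Bowtie, SAMtools and HOMER and the build was mm9. Their versions and roles, the peak calling settings and any use of the input are not given in the sources. Other than positions, the deposited lists held no measured values.

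Rows that repeated another exactly, 242 in replicate 1 and 480 in replicate 2, were counted once. Overlaps were computed in Python 3.11.15 with numpy 2.4.6, pandas 2.3.3 and scipy 1.17.1. Overlap counting was tested on simulated data, where all 900 planted matches were found and the counts equalled those of bedtools 2.31.1 in 20 of 20 lists. The simulated counterparts were all 500 bp wide, and no near misses were planted. Matching by wider peaks only was therefore not tested. Sites and comparisons were chosen with earlier results of these data known. Sites were named by a rule that took the 12 lowest and 6 highest sums of places, the 5 closest pairs of centres, the 5 most isolated sites and the densest groups of sites. Positions on chromosome 18 are not reported here. Gene positions and the RBPJ motif were to be compared only with an mm9 annotation or sequence and were not analysed here.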

Additional observations from a re-analysis of the deposited data

How the results depend on the processing

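Of 37 values under other settings, 24 stayed within the interval of the reported value or within 1.5 times the reported count, and 13 moved. The number of sites was 766 to 1032 under other overlap criteria and with repeated rows treated otherwise. It was 105 in the first 50% of both lists and 1479 with a replicate 2 counterpart of any width, fewer and more by construction. The share of 500 bp peaks was 8.40% with centres within 100 bp and 11.3% with peaks widened by 500 bp. It was 16.2% with any width and 8.39% in the first 50% of both lists. The last of these shares was lowered by construction, because counterparts in the last 50% of replicate 2 were not counted. It stands for 105 of the 1251 narrow peaks in the first 50% of replicate 1. With the whole replicate 2 list, 267 of the same 1251 had a 500 bp counterpart, against 970 of all 9116. The share of sites alone was 77.7% and 84.7% in replicates 1 and 2 at 5000 bp and 41.2% and 57.7% at 25000 bp. Centres within 100 bp made up 73.9% of pairs with widened peaks and 88.6% in the first 50% of both lists. Chromosome 14 had 10.1% with centres within 100 bp. The values moved under stricter or wider limits or, for the first 50% of both lists, with only that part of both lists counted. Apart from what the settings themselves impose, the cause of the shifts was not tested. The 3 comparisons by 50% of a list, the naming by percent of list and the intervals of single chromosomes were added after the data were seen. Neither replicate can be left out, since both are needed for an overlap. No paired analysis was possible because the replicates belong to 1 group and the input was not analysed here. Alternatives for genes and motifs were not run.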

Other observations

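Peaks that occur more than once in a list were almost never narrow. In replicate 1, 6 of 237 such peaks measured 500 bp (2.53%, 95% Wilson interval 1.17 to 5.41%), against 32.1% of the peaks listed once. In replicate 2, 8 of 440 did (1.82%, 0.924 to 3.55%), against 49.6% of the peaks listed once. The first 10% of the lists held 43.9% and 48.9% of the repeated peaks. Among the reproduced narrow sites, 0 had a repeated row in replicate 1 and 3 had one in replicate 2.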
